A study of Homo sapiens with 4 samples.

Results

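The data concern 10 stemness markers (CD44, EPCAM, PROM1, LGR5, BMI1, KLF4, MYC, NANOG, POU5F1 and ALDH1A1) in HGC-27, a human gastric cancer (GC) cell line, after treatment with recombinant IL-17B (rIL-17B). The 10 genes were chosen by name, as markers commonly studied in cancer stem cells (CSCs), out of 31907 gene names with reads in at least 1 library, and 9 of the 10 had a read. RNA was sequenced from 4 libraries of HGC-27 cells, 2 from cells given PBS and 2 from cells given rIL-17B at 200 ng/ml, all collected at 48 h. All 4 libraries are labelled as the same line, and the labels name no other agent or genetic change, although their library protocol speaks of monocytes. Nothing in the labels says whether the 2 libraries of a group came from separate cultures, so the p-values measure only the spread between these libraries, which may be technical.

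CSCs are the cells of a tumour that can renew themselves and seed new growth, and they are usually tracked by proteins on the cell surface, by transcription factors first known from embryonic stem cells, or by enzyme activity. CD44, EPCAM, PROM1 (CD133) and LGR5 are surface markers. MYC, KLF4, POU5F1 (OCT4) and NANOG are transcription factors of pluripotent or reprogrammed cells. BMI1 is a chromatin repressor needed for self-renewal of several tissue stem cells. ALDH1A1 is among the enzymes behind the aldehyde dehydrogenase assays used to sort CSCs. In the stomach, LGR5 marks stem cells at the gland base, and CD44 and CD133 are often used to isolate GC cells that form spheres.

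Promoter sequences from RefSeq (GRCh38.p14, 250 bases before to 50 after the annotated start) were found for 6 of the 10 genes, namely CD44, KLF4, BMI1, PROM1, NANOG and ALDH1A1, and not used here for EPCAM, LGR5, MYC and POU5F1. The 4 shown are those of 2 well detected markers, CD44 and KLF4, and of the 2 markers at or under detection in every library, NANOG and ALDH1A1. Each reads 5′ to 3′ on the strand of its gene, and capitals mark CpG, the dinucleotide at which DNA is methylated.
CD44, chr11:35138921-35139220, plus strand: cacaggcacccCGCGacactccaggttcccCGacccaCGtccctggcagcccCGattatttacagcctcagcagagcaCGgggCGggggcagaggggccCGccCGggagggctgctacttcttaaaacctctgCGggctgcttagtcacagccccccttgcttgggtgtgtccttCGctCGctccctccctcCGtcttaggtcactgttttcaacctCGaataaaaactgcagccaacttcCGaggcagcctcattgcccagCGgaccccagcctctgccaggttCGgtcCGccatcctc
KLF4, chr9:107489720-107490019, minus strand: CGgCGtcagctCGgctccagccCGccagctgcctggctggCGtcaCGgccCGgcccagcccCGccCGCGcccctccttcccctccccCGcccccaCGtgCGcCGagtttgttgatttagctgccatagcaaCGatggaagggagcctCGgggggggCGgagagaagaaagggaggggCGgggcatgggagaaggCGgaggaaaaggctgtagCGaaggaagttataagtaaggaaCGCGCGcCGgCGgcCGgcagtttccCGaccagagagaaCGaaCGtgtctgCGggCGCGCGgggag
NANOG, chr12:7789152-7789451, plus strand: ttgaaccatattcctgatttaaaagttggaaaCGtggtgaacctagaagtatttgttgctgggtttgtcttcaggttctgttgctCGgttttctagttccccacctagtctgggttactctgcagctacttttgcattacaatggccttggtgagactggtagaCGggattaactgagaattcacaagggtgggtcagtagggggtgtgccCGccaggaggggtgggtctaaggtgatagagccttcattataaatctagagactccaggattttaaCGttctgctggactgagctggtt
ALDH1A1, chr9:72953004-72953303, minus strand: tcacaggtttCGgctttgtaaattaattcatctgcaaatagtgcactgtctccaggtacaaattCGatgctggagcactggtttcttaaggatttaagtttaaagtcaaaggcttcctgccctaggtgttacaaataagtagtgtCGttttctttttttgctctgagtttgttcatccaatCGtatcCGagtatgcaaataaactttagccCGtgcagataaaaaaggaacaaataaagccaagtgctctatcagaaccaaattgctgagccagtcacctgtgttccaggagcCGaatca
The KLF4 window held 33 CpG and that of CD44 held 18, while NANOG had 5 and ALDH1A1 had 7, and the median over 35116 RefSeq promoters was 14. For BMI1 the entries held 36 and 65 CpG, and for PROM1, a barely detected gene, they held between 6 and 32. The motif GGGCGG is a GC box, searched on both strands and sharing its CG with the CpG count. It was in the CD44 and KLF4 windows, in both BMI1 entries and in 2 of the 4 PROM1 entries. The NANOG and ALDH1A1 windows lacked it, and 45% of all promoters held it. TATAAA on either strand was found in the NANOG window alone among the 10 entries of the 6 genes, against 11.5% of all promoters. CCAAT on either strand was present for ALDH1A1 and 1 of the 4 PROM1 entries (34.6% of all promoters). CACGTG, an E-box that reads the same on both strands, was present for KLF4 and 1 of the 2 BMI1 entries (7.26% of all promoters). These matches describe letters in the windows, and no DNA methylation or factor binding was measured.

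The libraries held between 12888029 and 17555879 counts, and 3 counts, taken as the detection floor, were between 0.171 and 0.233 CPM (the count scaled to a library total of 1000000). The intervals and the floor cover counting error only, since PCR copies of a molecule were counted separately. rIL-17B replicate 1 stood apart from the other 3 libraries: 21.2% of the 16361 genes tested were at least 2-fold from the PBS mean there, against 0.636% in rIL-17B replicate 2. Between the 2 PBS libraries chi-square per degree of freedom was 3.66, and between the 2 rIL-17B libraries it was 139, where counting noise alone gives about 1. Markers of cell types moved with the same library. The summed level of 6 fibroblast markers was 14607 and 14452 CPM under PBS and 269 and 12414 CPM in treated replicates 1 and 2. That of 6 mesenchymal markers was 37921 and 37254 CPM under PBS and 721 and 31489 CPM under rIL-17B. Most of the mesenchymal sum under PBS was FN1, with 33131 and 32458 CPM under PBS and 149 and 27450 CPM under rIL-17B. All 6 were at least 2-fold lower than the PBS mean in replicate 1, but VIM fell less than FN1. VIM had 727 and 706 CPM under PBS and 280 and 615 CPM under rIL-17B. The summed level of 8 epithelial markers, EPCAM included, was 784 and 792 CPM under PBS and 1825 and 1007 CPM under rIL-17B, nearly all of it from KRT8 and KRT18, while the defining genes ESRP1 and GRHL2 had 0 or 1 count in every library and CDH1 had 7 to 11 counts. KRT19, another of the 8, was the lowest in rIL-17B replicate 1, with 47 and 43 counts under PBS and 1 and 58 under rIL-17B, and CLDN4 had 107 and 108 counts under PBS and 97 and 104 under rIL-17B. For 7 neural and glial markers the sum was between 30.0 and 164 CPM, and for 4 endothelial markers between 1.03 and 30.5 CPM. For 8 leukocyte and monocyte markers it was between 8.55 and 10.4 CPM. Each of these sums was lowest in rIL-17B replicate 1, where 4, 1 and 5 of the respective genes were at 0. In the neural and leukocyte sums, most of that library's value came from 1 gene, which was highest there. MBP, of the neural list, had 19.2 and 16.99 CPM under PBS and 29.4 and 20.5 CPM under rIL-17B. CSF1R, of the leukocyte list, had 3.90 and 5.59 CPM under PBS and 8.14 and 6.15 CPM under rIL-17B. The other tested genes of these lists, 4 neural and 3 leukocyte, were at least 2-fold lower than the PBS mean in replicate 1. COL1A2, a collagen gene of the fibroblast list, had 87731 and 67635 counts under PBS and 16 and 82503 under rIL-17B. Whether rIL-17B replicate 1 held the same cells, handled in the same way, as the other 3 libraries was not tested. The part of this difference between the libraries in the results that follow was not tested, but the test of each marker is given with and without the library. In these bulk libraries fewer cells of a type and less RNA per cell cannot be told apart.

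MYC, CD44, KLF4 and BMI1 were well expressed in HGC-27, EPCAM and POU5F1 were low, LGR5 and PROM1 lay near the detection floor, and ALDH1A1 and NANOG were at or under it in all 4 libraries. Per kilobase of merged exons (GENCODE 29), the mean level under PBS was 69.3 CPM per kb for MYC, above 98.5% of the 28323 genes ranked. CD44 followed at 17.5 CPM per kb (above 91.7% of genes), then KLF4 at 12.1 (87.5%) and BMI1 at 8.15 (82.1%). EPCAM stood at 1.27 CPM per kb (57.0%), POU5F1 at 0.615 (48.3%), LGR5 at 0.116 (24.6%) and PROM1 at 0.0661 (16.2%). MYC was the highest of the 10 in each library, between 67.3 and 111 CPM per kb. The next pair in the order overlapped over the 4 libraries, with CD44 between 17 and 18.9 and KLF4 between 11.8 and 17.3 CPM per kb, although CD44 was above KLF4 within each library. BMI1 ranged from 6.95 to 8.43, EPCAM from 1.20 to 2.12 and POU5F1 from 0.213 to 0.695 CPM per kb, without overlap between neighbours. LGR5 and PROM1 overlapped (0.0261 to 0.148 and 0.00920 to 0.0731 CPM per kb), although LGR5 was the higher per kb within each library. That order rests on few counts, 7 for each gene in PBS replicate 1 and 2 against 1 in rIL-17B replicate 1.

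**Figure D1:**
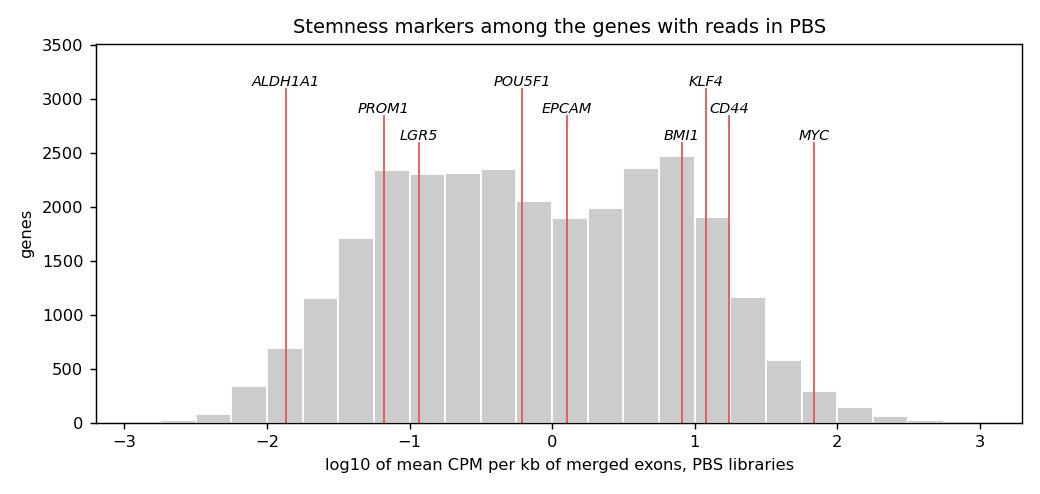
Histogram of genes by log10 of the mean CPM per kb of merged exons in the 2 PBS libraries, with red lines at the 9 stemness markers that had reads there. MYC lies in the upper tail (above 98.5% of genes), CD44, KLF4 and BMI1 in the upper hump, and LGR5, PROM1 and ALDH1A1 in the lower part; NANOG had no reads.

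**Figure D2:**
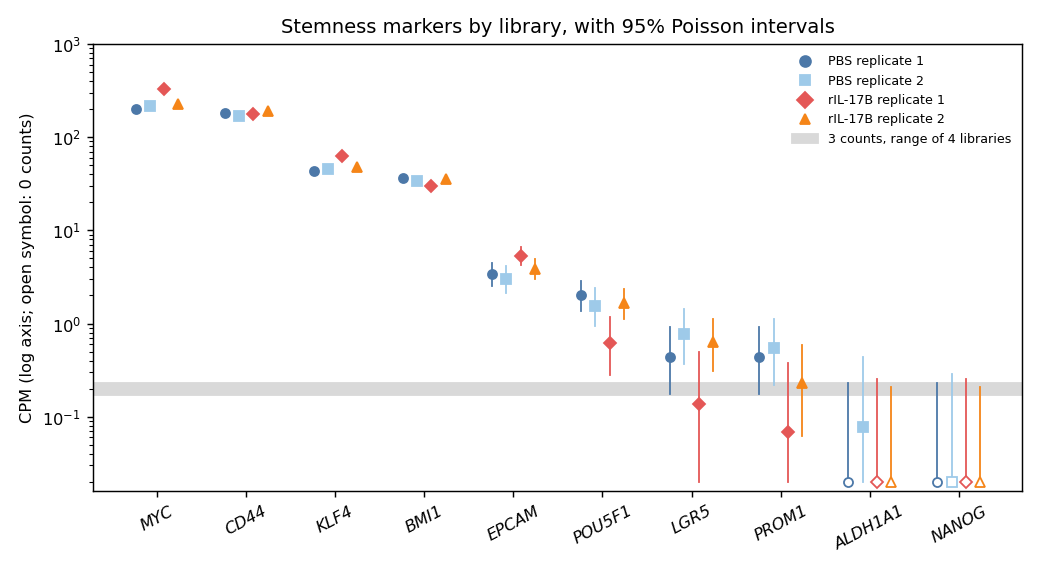
CPM of each stemness marker in each of the 4 libraries on a log axis, with exact 95% Poisson intervals; open symbols at the bottom are libraries with 0 counts and the grey band is the level of 3 counts (0.171 to 0.233 CPM). MYC, KLF4 and EPCAM were highest in rIL-17B replicate 1, and BMI1, POU5F1, LGR5 and PROM1 were lowest there.

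Of the surface markers, CD44, the hyaluronan receptor (chromosome 11, 35138870 to 35232402, GENCODE 29 on GRCh38), had 180 and 170 CPM under PBS and 177 and 189 CPM in treated replicates 1 and 2. The groups overlapped, and the spread between libraries of the same treatment was as wide as the distance between treatments. The log2 fold change was -0.0005 (standard error 0.13, 95% interval -0.38 to 0.38, adjusted p = 0.999 in edgeR's quasi-likelihood test). It was 0.11 (adjusted p = 0.652) without rIL-17B replicate 1 and -0.12 (adjusted p = 0.252) without replicate 2. CD44-AS1, an antisense RNA in the CD44 locus, had at most 2 counts per library. With both strands read, 0.223% of the 50-base words of CD44 coding transcripts occur in it.

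EPCAM, an epithelial adhesion molecule (chromosome 2, 47345158 to 47387601), had 54 and 39 counts under PBS and 78 and 68 counts under rIL-17B, which is 3.40 and 3.03 against 5.34 and 3.87 CPM. The group means were 3.21 ± 0.261 CPM and 4.61 ± 1.03 CPM (SD, n = 2 each). Both treated libraries were above both PBS libraries, with rIL-17B replicate 1 the highest, but the 95% Poisson intervals of PBS replicate 1 (2.55 to 4.43 CPM) and rIL-17B replicate 2 (3.01 to 4.91 CPM) overlapped. Its log2 fold change of 0.44 (standard error 0.30, 95% interval -0.42 to 1.30) did not pass the test (adjusted p = 0.661 in edgeR), and it was 0.26 (adjusted p = 0.813) without rIL-17B replicate 1 and 0.59 (adjusted p = 0.0880) without replicate 2.

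PROM1, the gene of CD133 (chromosome 4, 15963076 to 16084378), had 7 counts in each PBS library and 1 and 4 counts in treated replicates 1 and 2. At most 0.543 CPM was reached, and rIL-17B replicate 1 lay under the detection floor. With so few counts the libraries could not be told apart: the Poisson intervals of PBS replicate 1 (0.177 to 0.907 CPM) and rIL-17B replicate 2 (0.0621 to 0.583 CPM) overlapped widely, and the gene did not enter the test. Its paralog PROM2 had 16 counts in both PBS libraries and 0 and 14 counts under rIL-17B.

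LGR5, a receptor for R-spondins that strengthens Wnt signaling (chromosome 12, 71439770 to 71586310), had 7 and 10 counts under PBS and 2 and 11 counts under rIL-17B. Replicate 1 of rIL-17B was again under the floor, while replicate 2 (0.627 CPM) sat between the PBS libraries (0.440 and 0.776 CPM). The paralog LGR4, which binds the same ligands, was expressed far above it, at 12.7 CPM per kb under PBS against 0.116 for LGR5, and had 79.3 and 82.2 CPM under PBS and 96.2 and 79.7 CPM under rIL-17B. LGR6 was near LGR5, at 0.163 CPM per kb under PBS. The LGR4 log2 fold change was 0.05 (standard error 0.10, adjusted p = 0.809 in edgeR).

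Among the transcription factors, MYC, which drives growth and ribosome production (chromosome 8, 127735434 to 127741434), had 3212 and 2760 counts under PBS and 4851 and 3942 under rIL-17B. In CPM this was 202 and 214 against 332 and 225, so both treated libraries were above both PBS libraries, by 0.67 on the log2 scale in replicate 1 and by 0.11 in replicate 2 relative to the PBS mean (0.5 CPM added to each value). The 95% Poisson intervals of PBS replicate 2 (206 to 222 CPM) and rIL-17B replicate 2 (218 to 232 CPM) overlapped. The group means were 208 ± 8.63 CPM and 278 ± 75.9 CPM (SD, n = 2 each). Over all 4 libraries the log2 fold change was 0.34 (standard error 0.19, 95% interval -0.21 to 0.88, adjusted p = 0.661 in edgeR), and it was 0.11 (adjusted p = 0.651) without rIL-17B replicate 1 and 0.54 (adjusted p = 3.09e-10) without rIL-17B replicate 2. The relatives MYCN and MYCL had at most 19 counts in any library.

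KLF4, a zinc finger factor of gut epithelium and of reprogramming (chromosome 9, 107484852 to 107490482), showed the same order of libraries, with 43.2 and 45.2 CPM under PBS and 63.3 and 48.4 CPM in treated replicates 1 and 2. The Poisson interval of rIL-17B replicate 2 (45.2 to 51.7 CPM) overlapped that of both PBS libraries, and only replicate 1 (59.3 to 67.5 CPM) was clear of them. Its log2 fold change was 0.26 (standard error 0.13, 95% interval -0.13 to 0.64, adjusted p = 0.661 in edgeR), 0.13 (adjusted p = 0.690) without rIL-17B replicate 1 and 0.38 (adjusted p = 0.00106) without replicate 2. KLF5, the relative best known from proliferating gut epithelium, had 38.3 and 40.0 CPM under PBS and 44.9 and 38.0 CPM under rIL-17B.

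POU5F1, which encodes OCT4 (chromosome 6, 31164337 to 31180731), had 32 and 20 counts under PBS and 9 and 29 counts under rIL-17B. In CPM, rIL-17B replicate 1 (0.616) was the lowest and replicate 2 (1.65) lay between the PBS libraries (2.01 and 1.55). The log2 fold change of -0.69 (standard error 0.65, 95% interval -2.57 to 1.20, adjusted p = 0.674 in edgeR) became -0.12 (adjusted p = 0.955) without rIL-17B replicate 1 and -1.67 (adjusted p = 0.0148) without replicate 2. These counts are uncertain in kind as well as in number. Of the 50-base words in POU5F1 coding transcripts, 37.4% also occur in transcripts of other genes, foremost the copies POU5F1B (16.4%) and POU5F1P3 (14.2%). POU5F1B itself had 10, 0, 9 and 4 counts in PBS replicates 1 and 2 and rIL-17B replicates 1 and 2. The locus also overlaps TCF19, which had 1143 and 906 counts under PBS and 2026 and 1526 under rIL-17B.

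NANOG, the homeobox factor of the pluripotent state (chromosome 12, 7787794 to 7799141), was listed in none of the 4 libraries. The floor of 3 counts was 0.189 and 0.233 CPM in the PBS libraries and 0.205 and 0.171 CPM in the rIL-17B libraries, and the exact two-sided 95% Poisson interval of a count of 0 reached 0.232 and 0.286 CPM, then 0.252 and 0.210 CPM. Of its 50-base words, 17% also occur in transcripts of other genes, first of all the copy NANOGP8 (12.4%), and NANOGP8 was at 0 too, while NANOGP1 had 3 counts in rIL-17B replicate 1 and 0 elsewhere.

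BMI1, a PCGF subunit of Polycomb repressive complex 1 (chromosome 10, 22321211 to 22331484), had 36.1 and 33.8 CPM under PBS and 29.8 and 35.1 CPM under rIL-17B. Replicate 1 of rIL-17B was the lowest library and replicate 2 lay between the PBS libraries, so the groups overlapped. The log2 fold change was -0.17 (standard error 0.18, 95% interval -0.68 to 0.34, adjusted p = 0.684 in edgeR), 0.0032 (adjusted p = 0.998) without rIL-17B replicate 1 and -0.37 (adjusted p = 0.00766) without replicate 2. A read-through gene, COMMD3-BMI1, shares 26.8% of the BMI1 words and was listed in no library, so how reads of the shared exons were assigned is not known. PCGF2, the nearest paralog of BMI1, was at a like level per length (9.60 against 8.15 CPM per kb under PBS) and had 33.2 and 34.2 CPM under PBS and 31.4 and 32.2 CPM under rIL-17B.

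ALDH1A1, a retinaldehyde dehydrogenase (chromosome 9, 72900662 to 73080442), had 1 count in PBS replicate 2 and 0 in the other libraries, under the floor throughout. Its paralog ALDH1A3 was detected, with 113 and 81 counts under PBS and 0 and 97 counts in treated replicates 1 and 2. ALDH1A2 had 6 and 10 counts under PBS and 0 and 3 under rIL-17B. Of this trio of enzymes, the one with clear reads was thus at 0 in 1 of the 2 treated libraries.

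Across the 10 markers, 6 passed edgeR's filter on low counts (CD44, EPCAM, BMI1, KLF4, MYC and POU5F1), and LGR5, PROM1, ALDH1A1 and NANOG did not. None of the 6 had an adjusted p under 0.05 in the quasi-likelihood test, and neither had any of the 16361 genes tested (0% called). At an unadjusted p under 0.05 there were 0 of the 6 and 1.38% of all genes, and DESeq2 also called 0 genes, with 457 under an unadjusted p of 0.05. The fitted change was positive for 3 markers and negative for 3. EPCAM, KLF4 and MYC had every rIL-17B library above every PBS library, 3 of 6 where 31.5% of all tested genes did, and none of the 6 had the reverse order, shown by 27.5% of all tested genes. Without rIL-17B replicate 1 CD44 joined them, 4 of 6 where 37% of tested genes lay above both PBS libraries. With 2 libraries a group, the smallest two-sided p of an exact permutation test is 0.333, so it was not run on single genes.

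**Figure D3:**
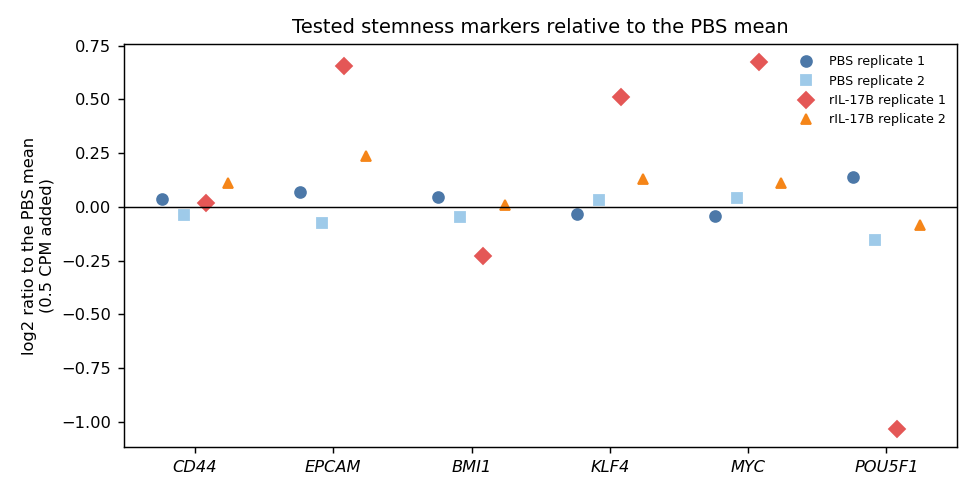
Log2 ratio of each library to the mean of the 2 PBS libraries for the 6 tested stemness markers, with 0.5 CPM added to each value; circles and squares are PBS, diamonds and triangles are rIL-17B replicates 1 and 2. EPCAM, KLF4 and MYC lie between 0.51 and 0.67 in replicate 1 and between 0.11 and 0.24 in replicate 2, and POU5F1 lies at -1.03 and -0.08.

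Relative to the PBS mean, replicate 1 was farther away than replicate 2 for 5 of the 6 tested markers, the exception being CD44 (0.02 and 0.11 on the log2 scale). POU5F1 was the only one of the 6 at least 2-fold from PBS, lower in replicate 1 (log2 ratio -1.03 with 0.5 CPM added, and -0.78, under 2-fold, with 1 CPM added), where 18.6% of all tested genes were 2-fold lower. None of the 6 was 2-fold higher in replicate 1 (2.61% of tested genes were), and none moved 2-fold in replicate 2 (0.0611% of tested genes were higher and 0.575% lower). Among all genes, 35.3% of tested genes were at least as far from PBS as MYC in replicate 1, 47.3% were as far as KLF4 and 97.9% as far as CD44. The median over all tested genes was 0.08 in replicate 1 and -0.0013 in replicate 2 on the same scale.

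**Figure D4:**
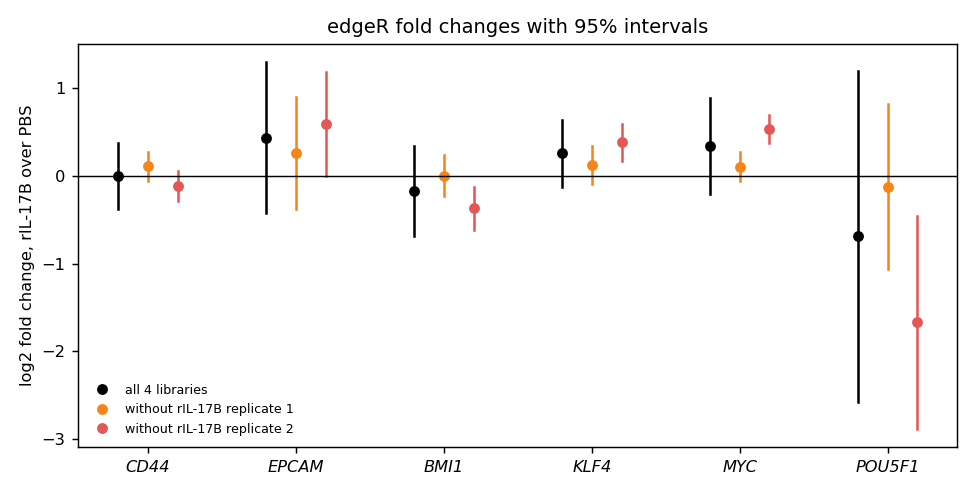
edgeR log2 fold change (rIL-17B over PBS) of the 6 tested stemness markers with 95% intervals, for all 4 libraries (black), without rIL-17B replicate 1 (orange) and without rIL-17B replicate 2 (red). All black intervals cross 0, as do all orange ones, and the red intervals of BMI1, KLF4, MYC and POU5F1 do not.

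The call for the markers turned on which treated library was kept. Without rIL-17B replicate 2, 4 of the 7 markers then tested passed an adjusted p of 0.05 in edgeR (MYC and KLF4 higher, BMI1 and POU5F1 lower), where 55.1% of 17223 genes passed. Without rIL-17B replicate 1, 0 of 7 passed and 2.95% of 17103 genes did. In both of these fits the single treated library is assumed to vary as the PBS libraries do.

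Partners and relatives of the markers were counted in 12 lists. No gene in any list had an adjusted p under 0.05 in edgeR, so the medians of the fitted log2 fold changes are given as a description beside the median of -0.03 over all tested genes. The median was -0.15 for 15 Polycomb partners of BMI1, all of them tested, and PHC2, the highest, had 171 and 201 CPM under PBS and 58.0 and 152 CPM under rIL-17B. CBX6, the next, had 89.4 and 84.0 CPM under PBS and 80.1 and 89.1 CPM under rIL-17B.

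A list of MYC network genes (13 genes, all tested) had a median of -0.05. MLXIP had 136 and 151 CPM under PBS and 216 and 154 CPM under rIL-17B, and MGA had 115 and 120 against 192 and 136 CPM. For 15 genes known as MYC targets the median was 0.41, with 13 fitted higher and 2 lower. Over all 16361 genes tested, 7753 were fitted higher and 8608 lower. Of the 15 MYC targets, 11 had every rIL-17B library above every PBS library, as did 31.5% of all tested genes. The median log2 ratio to PBS over all 15 was 0.74 in replicate 1 and 0.14 in replicate 2. LDHA, the lactate dehydrogenase subunit, had 1532 and 1402 CPM under PBS and 2610 and 1740 CPM under rIL-17B, and NCL, the nucleolar protein nucleolin, had 896 and 879 against 1618 and 1017 CPM. The MYC targets CCND2 and TERT had the reverse order in CPM and were chosen for mention after their values were seen. CCND2 had 794 and 869 counts under PBS and 9 and 679 under rIL-17B, and TERT had 11 and 12 against 10 and 7 counts.

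In the KLF family 12 of 16 genes were tested, with a median of -0.40, and their median log2 ratio to PBS was -0.63 in replicate 1 and -0.02 in replicate 2. KLF13 had 99.5 and 113 CPM under PBS and 147 and 116 CPM under rIL-17B, whereas KLF6 had 68.5 and 64.6 against 40.6 and 57.5 CPM. Pluripotency genes other than the 10 markers were at or under 3 counts in every library for 8 of 15, and 4 were tested (median 0.63, 3 fitted higher and 1 lower), with a median log2 ratio of 1.04 in replicate 1 and 0.23 in replicate 2. SALL4, a zinc finger factor of embryonic stem cells, had 36.2 and 32.7 CPM under PBS and 72.7 and 44.4 CPM under rIL-17B, and SOX2 was the 1 of the 4 that was lower. Of 9 copies of NANOG and POU5F1, 7 were at or under the floor and none was tested; POU5F1P3 had at most 5 counts.

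Among 18 genes of the LGR and R-spondin system and of gut stem cells, 9 were tested (median 0.05) and 6 were at or under the floor, ASCL2, OLFM4 and SMOC2 among them. TNFRSF19 (TROY), a gland base marker, had 60.7 and 70.5 CPM under PBS and 36.9 and 56.1 CPM under rIL-17B. The 15 other surface markers of stemness had a median of -0.63 over 12 tested (log2 ratio -1.28 in replicate 1 and -0.16 in replicate 2), and 8 of them had both treated libraries under both PBS libraries, as did 27.5% of all tested genes. ITGB1, the integrin beta-1 subunit, had 1425 and 1341 CPM under PBS and 583 and 1279 CPM under rIL-17B, while CD24 had 253 and 237 against 475 and 298 CPM.

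The list of CD44 ligands, linkers, proteases and splicing factors had a median of -0.09 over 13 tested of 15. MSN, which ties CD44 to actin, had 624 and 632 CPM under PBS and 761 and 643 CPM under rIL-17B, and MMP14, a membrane protease that cleaves CD44, had 610 and 640 against 0.547 and 503 CPM. EPCAM partners and cleavage enzymes gave a median of -0.04 over 8 tested of 9, led by CTNNB1 (350 and 375 CPM under PBS, 384 and 348 CPM under rIL-17B) and FHL2 (300 and 287 CPM, then 309 and 300.1 CPM). The ALDH family gave a median of 0.13 over 15 tested of 18. ALDH18A1 had 110 and 106 CPM under PBS and 149 and 117 CPM under rIL-17B, and ALDH3A2 had 110 and 107 against 148 and 109 CPM. Of 11 differentiation markers, 6 were at or under the floor and 3 were tested, with a median of 0.34 (2 fitted higher and 1 lower).

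**Figure D5:**
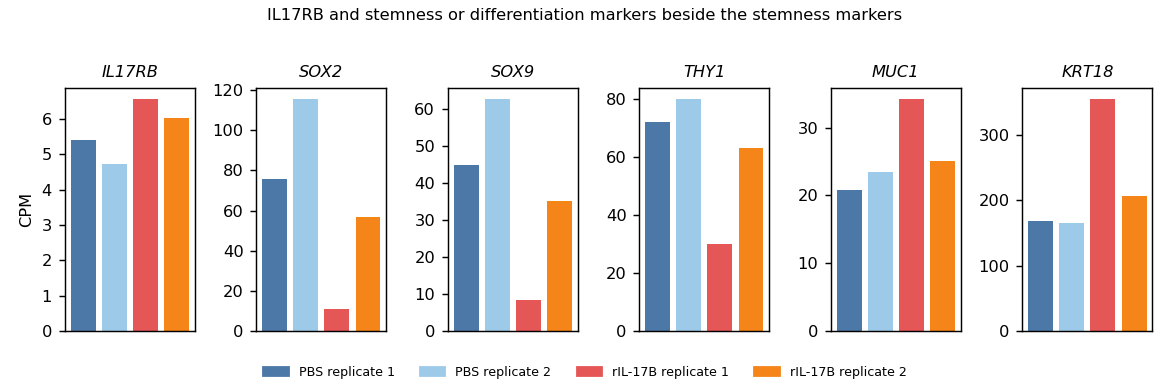
CPM in each of the 4 libraries (bars from 0, a separate axis per gene) for IL17RB and 5 stemness or differentiation markers that the study assayed. SOX2, SOX9 and THY1 were lowest in rIL-17B replicate 1 and KRT18 and MUC1 highest there, with rIL-17B replicate 2 nearer to PBS.

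Besides the 10 markers, the receptor and the stemness and differentiation genes that the study assayed were read in the same libraries. IL17RB, the receptor of IL-17B, had 86 and 61 counts under PBS and 96 and 106 counts under rIL-17B (5.41 and 4.73 against 6.57 and 6.04 CPM). The ligand gene IL17B itself had 3 and 6 counts under PBS and 0 and 6 under rIL-17B. For IL17RB the fitted log2 fold change was 0.24 (standard error 0.24, adjusted p = 0.680 in edgeR). SOX2, a pluripotency factor, had 75.5 and 116 CPM under PBS and 10.9 and 56.6 CPM under rIL-17B, and the fitted log2 fold change was -1.52 (standard error 0.92, adjusted p = 0.661 in edgeR). Both treated libraries were lower, but the PBS libraries differed by 0.61 on the log2 scale between themselves. SOX9, a progenitor factor of gut epithelium, followed the same order, with 44.7 and 62.5 CPM under PBS and 8.42 and 35.0 CPM under rIL-17B. THY1 (CD90) had 72.1 and 80.0 CPM under PBS and 30.0 and 63.0 CPM under rIL-17B. The differentiation markers KRT18 and MUC1 had the reverse order, with replicate 1 the highest. KRT18, which encodes CK18, had 169 and 165 CPM under PBS and 355 and 207 CPM under rIL-17B, and MUC1 had 20.8 and 23.4 against 34.2 and 25.1 CPM. MUC6, the other tested gene of the differentiation list, was lowest in replicate 1, with 14 and 16 counts under PBS and 7 and 19 under rIL-17B. KRT14, which encodes CK14, had 0 counts in every library and was not tested. None of these genes passed the test (adjusted p = 0.661 for SOX9, THY1, KRT18 and MUC1 in edgeR).

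The genes closest in pattern to each tested marker were found by the root mean square distance between centred log2(CPM + 0.5) profiles over the 4 libraries, among 9989 genes with a mean of at least 10 CPM. For MYC these were RIOK1 (distance 0.0020) and EYA4 (0.0084), for KLF4 AP3D1 (0.0020) and RBBP4 (0.0084), and for EPCAM ABCD3 (0.0091) and HUS1 (0.0097). The nearest to CD44 were RAB5A (0.0073) and the pseudogene NAMPTP1 (0.0098), to BMI1 RPS19 (0.0067) and NMT2 (0.0081), and to POU5F1 FGF2 (0.0270) and EDIL3 (0.0330). FGF2, for instance, had 119 and 102 CPM under PBS and 53.5 and 104 CPM under rIL-17B. The distance is a description over 4 libraries, of which 1 stands apart.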

How the data were processed

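RNA of HGC-27 cells, collected 48 h after rIL-17B or PBS was added, was made into Smart-seq2 libraries (oligo-dT primer, PCR). The authors deposited raw counts, the whole number of reads per gene name, 1 file per library. The submitters' processing notes name HISAT2 2.1.0, Bowtie2 2.2.3, TopHat2, HTSeq 0.6.0 and the build hg38, without their roles; annotation, strand use and the handling of shared reads are not given in the sources used here, so counts of overlapping genes and near copies are uncertain.

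Genes not listed in a file were given 0 counts. Names turned into spreadsheet dates (22 to 25 entries, 0.228% to 0.244% of counts) were left out, and a name listed more than once (83 to 98 per library, with equal counts) was used once. CPM is the count over the library total. Floors are 3 counts, and intervals are exact Poisson. Both groups (2 libraries each) were compared with edgeR 4.0.16 in R 4.3.3 (TMM, filterByExpr, quasi-likelihood F test, Benjamini-Hochberg over 16361 genes, threshold 0.05); the standard error is the log2 fold change over the square root of F. DESeq2 1.42.0, upper-quartile scaling, other filters, a replicate block and leaving out each library were alternatives. The fit was tested on simulated data in which the 2 treated libraries changed alike, unlike the real pair. Coordinates and merged exon lengths are from GENCODE 29, promoters from RefSeq. Shared words are 50-base stretches of coding transcripts found, on either strand, in transcripts of other genes.

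The markers, lists and tests were chosen with earlier results of these data known. Genes were named by rule: the 10 markers, IL17RB, SOX2, SOX9, THY1, MUC1 and KRT18, the nearest paralogs or copies (1 is not reported here), the 2 genes per list with the highest mean CPM, and the 2 genes nearest in pattern to each tested marker. Others (CCND2, TERT, genes of the cell type, gut and differentiation lists, genes overlapping or copying a marker, and IL17B) were named outside this rule, after their values were seen.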

Additional observations from a re-analysis of the deposited data

How the results depend on the processing

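The count of 0 genes and 0 stemness markers past an adjusted p of 0.05 was the same in edgeR after upper-quartile scaling, with no low-count filter, after requiring 10 counts in all libraries, with repeated names summed, at an adjusted p of 0.1 and with DESeq2. With no adjustment, 226 genes and 0 markers had p under 0.05. Leaving out each library in turn gave between 0 and 9489 genes and between 0 and 4 markers: 504 genes and 0 markers without rIL-17B replicate 1, 9489 genes and 4 markers without rIL-17B replicate 2, and 0 and 0 without either PBS library. These fits rest on 1 residual degree of freedom per gene and on the spread shared across genes.

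When the replicate number was the block, 0 genes and 0 markers passed and 173 genes had an unadjusted p under 0.05. The differences between replicates 1 and 2 correlated at 0.0795 between the groups over 16361 genes, and nothing in the labels says that equal numbers were handled together.

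The fitted change of CD44 (-0.0005) turned positive with upper-quartile normalization (0.0029), without the filter (0.0064), without PBS replicate 1 (0.05) and without rIL-17B replicate 1 (0.11), and ranged from -0.12 to 0.11 over the libraries left out. BMI1 turned from -0.17 to 0.0032 without rIL-17B replicate 1 and ranged down to -0.37. The other 4 tested markers kept their sign in every setting that tested them. The lowest adjusted p of any marker was between 0.551 and 0.847 in the settings that kept all 4 libraries. Markers whose groups did not overlap numbered 4 of 10 (EPCAM, KLF4, MYC and PROM1, the last not tested) with library totals, TMM or upper-quartile scaling, and 5 without rIL-17B replicate 1, an alternative chosen after seeing the data. Of all tested genes, 59% and 73.1% did not overlap in the same ways. At a floor of 10 counts, 3 markers instead of 2 were under detection in every library. The log2 ratios to PBS kept their sign with 0.1 or 1 CPM added. POU5F1 in rIL-17B replicate 1 moved most, from -1.03 to -1.39 and -0.78. Depth limits LGR5, PROM1, ALDH1A1 and NANOG, for which a change was not detectable.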
